A study of Mus musculus with 4 samples.

Results

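The FOXO circuit of mouse haematopoietic stem cells (HSC) was followed through 8 genes, the transcription factors Foxo1, Foxo3 and Foxo4 and the stress and quiescence genes Txnip, Ccng2, Sesn1, Sesn3 and Cited2, 2 weeks after inactivation of the retinoblastoma (Rb) family. They were taken by name from probe sets whose platform annotation gives exactly 1 gene symbol. All 8 had such a probe set, among 18193 genes in all, and together they had 21, while 1 further probe set annotated to Foxo3 and another gene was left out. The main value of a gene is that of its brightest probe set by mean signal.

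The study profiled HSC, sorted as KLS CD48- CD150+ cells, on Affymetrix arrays. The Rb family deficient group had 2 pools and the genotype label Rb -/- p130 -/- p107-/-. The wild type group had 2 pools and the genotype label Rb +/+ p130 +/+ p107-/-, so both groups lacked p107 by label and differed in Rb and p130. Per the labels, adult mice received tamoxifen to start recombination, each pool came from 3 mice, and the cells were sorted 2 weeks later. The sample descriptions give a single number for pool 1 of each group and a range of numbers for pool 2, and what these numbers count is not stated. The labels state neither the driver of the recombinase nor exact ages, nor whether a mouse entered more than 1 pool, and the p-values measure only the spread between these pools. Of the targeted genes, Rbl2 (p130) stood at 7.82 and 8.21 in deficient pools, against 8.94 and 8.75 in wild type pools, and Rb1 at 9.82 and 9.72 in deficient pools, against 9.37 and 9.58 in wild type pools. Rbl1 (p107), labelled -/- in both groups, stood at 5.35 and 5.42 in deficient pools, against 5.92 and 6.77 in wild type pools. This difference of -0.96 (SE 0.30, limma adjusted p = 0.761) in its main probe set is one that the shared label does not give. The other Rbl1 probe sets did not show it, at -0.0009 (SE 0.17), 0.03 (SE 0.18) and 0.03 (SE 0.17). Where the probes of these targeted genes lie relative to the deleted parts is not known here, so these values do not test the labels. All values are log2 RMA values, array medians were between 5.93 and 6.01, and a difference is Rb family deficient minus wild type.

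FOXO proteins are forkhead transcription factors. When growth factors and cytokines activate PI3K and AKT, AKT phosphorylates FOXO proteins, 14-3-3 proteins bind them and they leave the nucleus. When this signal is low they enter the nucleus and turn on genes for cell cycle arrest, antioxidant defence, autophagy and apoptosis. In mice, loss of the FOXO factors drives HSC out of quiescence and raises their reactive oxygen species, and Foxo3 alone is needed for long-term maintenance of the HSC pool.

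RefSeq promoters (GRCm38.p6), each from 250 bases before to 50 after a start site, were matched for 7 of the 8 genes, all but Foxo4, and Sesn1 had 2 start sites, which made 8 windows. Both strands were searched for the FOXO core motif, GTAAACA, and for forms of the E2F motif, because E2F factors are what the Rb family restrains. The E2F forms were TTNNCGC with CG, GG, CC or GC in place of NN. The 2 sequences that follow are the 250 bases before the start sites of Txnip (chr3:96557707-96557956, plus strand), the only window with both motifs, and of Ccng2 (chr5:93267323-93267572, plus strand), the gene with the largest difference between the groups. Capitals mark motif matches.
Txnip: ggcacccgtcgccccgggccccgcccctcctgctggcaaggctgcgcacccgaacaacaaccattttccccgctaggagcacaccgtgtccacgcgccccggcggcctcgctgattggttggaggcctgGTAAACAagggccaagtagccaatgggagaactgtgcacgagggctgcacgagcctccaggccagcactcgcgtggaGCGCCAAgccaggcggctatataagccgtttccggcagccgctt
Ccng2: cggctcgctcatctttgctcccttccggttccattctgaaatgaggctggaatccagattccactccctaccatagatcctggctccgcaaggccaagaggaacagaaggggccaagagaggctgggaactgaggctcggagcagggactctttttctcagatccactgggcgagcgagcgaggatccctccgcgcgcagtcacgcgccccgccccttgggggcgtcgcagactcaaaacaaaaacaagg
The Txnip window held a FOXO match starting 121 bases and an E2F match, on the reverse strand, starting 44 bases before the start site. The Ccng2 window held no match to these letters, and neither did that of Sesn3.

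The other matches are shown with their flanks, 30 bases each, for Foxo1 (chr3:52268292-52268321, plus strand), Foxo3 (chr10:42276855-42276884, minus strand), the upstream Sesn1 start (chr10:41810585-41810614, plus strand), the downstream Sesn1 start (chr10:41887299-41887328, plus strand) and Cited2 (chr10:17723142-17723171, plus strand).
Foxo1: tcggcggagacTTCGCGCgtccattggccg
Foxo3: gcccgcccccaTTCCCGCagccccgcgcag
Sesn1 upstream start: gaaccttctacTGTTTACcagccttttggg
Sesn1 downstream start: ccccaaccccaGCGCCAAggggtggggcta
Cited2: tgtgtttgcgcTTGCCGCcggggaggctgt
The match at the upstream Sesn1 start is the FOXO motif on the reverse strand, 23 bases after the start site, and the rest are E2F matches. In all, 2 of the 8 windows held the FOXO motif, against 3.65% of the 32851 promoters in the table, and 5 of 8 held an E2F form, against 9.57%. No FOXO match overlapped an E2F match in these windows. The windows were not matched to other promoters on base composition, and a match describes letters, not a bound site.

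None of the 8 genes passed limma's adjusted threshold of 0.05. The same held over all genes, where 0% were called in either direction and the smallest adjusted p was 0.326, while an unadjusted p under 0.05 was reached by 2.19% on the higher side and 4.04% on the lower. Of the 8 genes, 1 was in that unadjusted range, Ccng2, on the higher side. Below 0 stood 7 and only Ccng2 above it, with a median log2 difference of -0.13 (-0.0038 over all genes, of which 50.8% were below 0). The pools of the 2 groups did not overlap for 4 of the 8 genes, with Ccng2 higher and Foxo3, Sesn1 and Sesn3 lower in deficient pools, against 17.0% of all genes higher and 18.5% lower. For 5 of the 8 genes, Foxo1, Foxo3, Foxo4, Txnip and Cited2, the gap between 2 pools of 1 group was larger than the difference between the groups. In these bulk samples fewer cells of a type and less RNA per cell cannot be told apart.

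**Figure D1:**
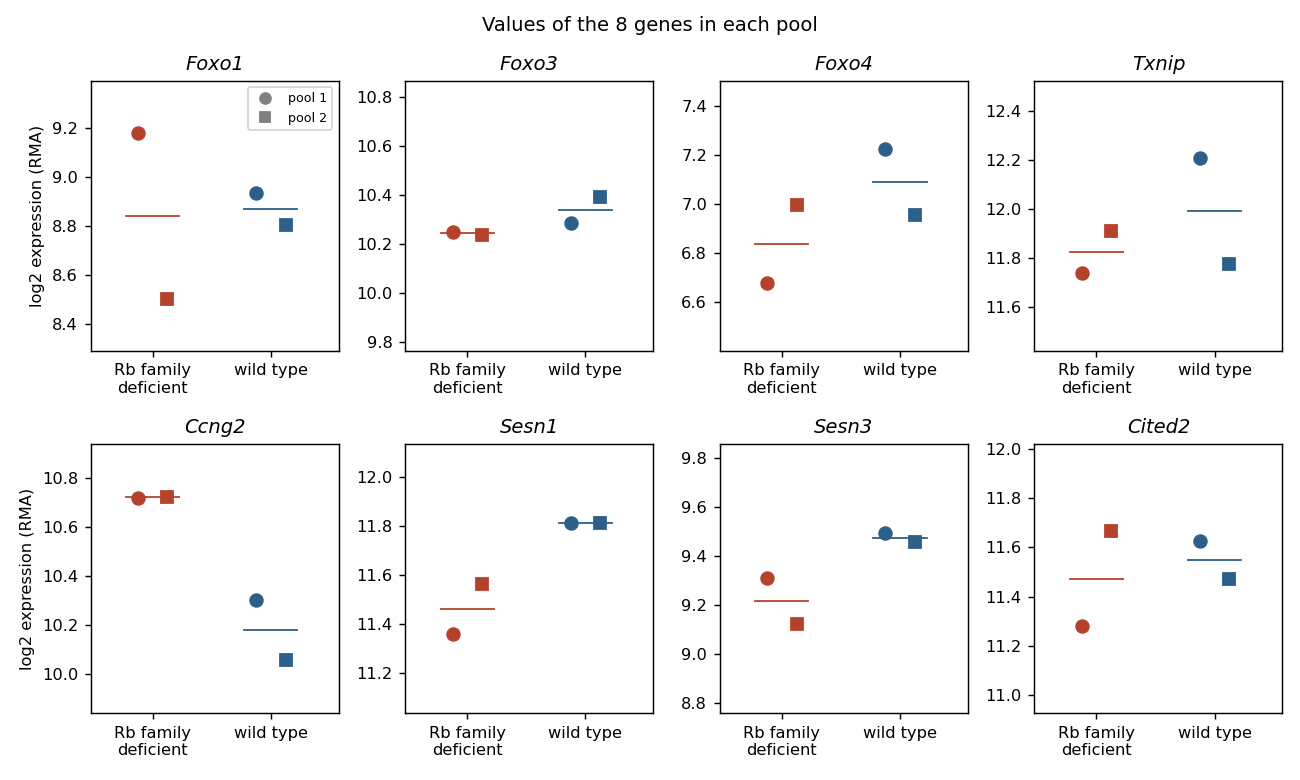
Log2 RMA values (y axis) of the main probe set of each of the 8 genes in the Rb family deficient pools (red, left) and the wild type pools (blue, right). Circles are pool 1, squares pool 2 and lines group means, and every panel spans the same range on the y axis. Ccng2 is the only gene with both deficient pools above both wild type pools, and Foxo3, Sesn1 and Sesn3 have both below.

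The FOXO factors themselves had differences between -0.25 and -0.03 in their main probe sets, with intervals that include 0. Foxo1, which in other cells links insulin and cytokine signals to metabolism and lymphocyte homing, had log2 values of 9.18 and 8.50 in deficient pools, against 8.93 and 8.80 in wild type pools. The deficient pools lay on both sides of the wild type pools and 0.68 apart. The difference was -0.03 (SE 0.25, n = 2 against 2 pools, limma adjusted p = 0.994), with a 95% interval from -0.67 to 0.61. Leaving out deficient pool 1 or 2 gave -0.37 or 0.31, and leaving out wild type pool 1 or 2 gave 0.04 or -0.09. The 3 other Foxo1 probe sets gave 0.17 (SE 0.20), -0.48 (SE 0.23) and -0.14 (SE 0.15). Only the one at -0.48, with 6.34 and 6.77 in deficient pools against 7.25 and 6.82 in wild type pools, kept the groups apart. The main Foxo1 probe set has an _s_at name, which marks probes that can match more than one transcript, and with probe sets lacking such names first Foxo1 differed by 0.17.

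Foxo3, the family member most closely tied to HSC quiescence in mice, had values of 10.25 and 10.23 in deficient pools and 10.28 and 10.39 in wild type pools. Both deficient pools were lower, but the nearest pools of the groups were only 0.03 apart by these values. The difference was -0.10 (SE 0.14, n = 2, limma adjusted p = 0.932), the smallest SE of the 8 genes, and its interval from -0.46 to 0.27 corresponds to at most a 1.37-fold lower or a 1.20-fold higher level. The second Foxo3 probe set stood at 8.34 and 8.23 in deficient pools, against 8.60 and 8.70 in wild type pools. It also kept the groups apart, at -0.36 (SE 0.14, limma adjusted p = 0.742), and stayed between -0.42 and -0.30 with any 1 pool left out. The dimmest, at -0.10 (SE 0.18), did not. The main value was -0.15 or -0.04 when wild type pool 1 or 2 was left out and -0.19 after averaging the probe sets.

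Foxo4, on the X chromosome, acts redundantly with Foxo1 and Foxo3 in mouse blood cells. It had values of 6.68 and 6.996 in deficient pools, against 7.23 and 6.96 in wild type pools. Deficient pool 2 lay between the wild type pools. The difference was -0.25 (SE 0.19, n = 2, limma adjusted p = 0.864). Leaving out deficient pool 1 or 2 gave -0.10 or -0.41, and leaving out wild type pool 1 or 2 gave -0.12 or -0.39. The second Foxo4 probe set differed by 0.00 (SE 0.20).

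**Figure D2:**
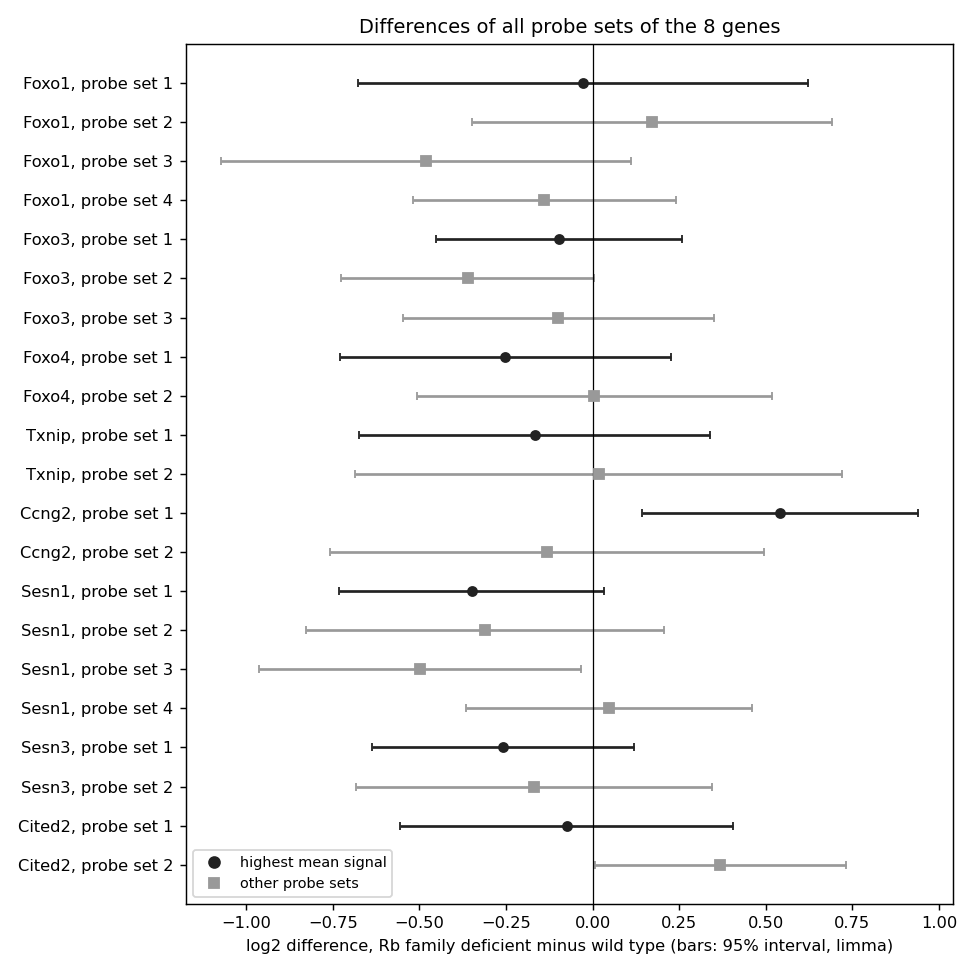
Log2 difference, Rb family deficient minus wild type (x axis), with its 95% limma interval for each of the 21 probe sets of the 8 genes, numbered within a gene from the highest mean signal. Black circles are the main probe sets, grey squares the others, and the intervals of Ccng2 probe set 1 and Cited2 probe set 2 (above 0) and of Sesn1 probe set 3 (below 0) leave out 0.

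Txnip encodes a protein that binds and inhibits thioredoxin and restrains glucose uptake, and in mice its loss lowers HSC quiescence under stress. It had values of 11.74 and 11.91 in deficient pools and 12.21 and 11.78 in wild type pools. The wild type pools enclosed deficient pool 2 and were themselves 0.43 apart. The difference was -0.17 (SE 0.20, n = 2, limma adjusted p = 0.911), with an interval from -0.67 to 0.34. Leaving out deficient pool 1 or 2 gave -0.08 or -0.25, leaving out wild type pool 1 or 2 gave 0.05 or -0.38, and averaging its probe sets gave -0.07. The dimmer Txnip probe set showed the same wide gap within the wild type group, at 7.03 and 7.09 in deficient pools against 7.43 and 6.66 in wild type pools (difference 0.02, SE 0.28).

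Ccng2 encodes cyclin G2, an unconventional cyclin that slows the cell cycle and is raised in cells leaving it. Its log2 values were 10.72 and 10.72 in deficient pools and 10.30 and 10.06 in wild type pools. The deficient pools were nearly identical, 0.0047 apart, and both lay above both wild type pools. The difference was 0.54 (SE 0.16, n = 2 against 2 pools, limma adjusted p = 0.761), or 1.46-fold, with an interval from 0.14 to 0.94. By p it ranked 398 among the 18193 genes. It stayed between 0.42 and 0.66 with any 1 pool left out, and was 0.49 with each array centred on its median. The second Ccng2 probe set, near the bottom of the scale at 4.68 and 4.25 in deficient pools against 4.85 and 4.35 in wild type pools, did not show it (difference -0.13, SE 0.25). With the mean of the pair Ccng2 differed by 0.20.

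The sestrins restrain mTORC1 when amino acids are scarce and help recycle peroxiredoxins. Sesn1, also a p53 target, had values of 11.36 and 11.56 in deficient pools and 11.81 and 11.81 in wild type pools. Both deficient pools were lower, and the wild type pools were 0.0019 apart. The difference was -0.35 (SE 0.15, n = 2, limma adjusted p = 0.801), or 1.27-fold, and it ran from -0.45 to -0.25 with any 1 pool left out. Of the other Sesn1 probe sets, the second stood at 10.95 and 11.13 in deficient pools and 11.57 and 11.13 in wild type pools (difference -0.31, SE 0.20). The third stood at 8.68 and 9.07 in deficient pools and 9.36 and 9.38 in wild type pools (difference -0.50, SE 0.18, limma adjusted p = 0.725). In the second, wild type pool 2 reached down to deficient pool 2, while the third kept the groups apart. The fourth and dimmest differed by 0.05 (SE 0.16). The 2 brightest have _s_at names, and with probe sets lacking such names first Sesn1 differed by -0.50.

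Sesn3, induced by FOXO factors in mouse cells, had values of 9.31 and 9.12 in deficient pools and 9.49 and 9.45 in wild type pools. Both deficient pools were lower. The difference was -0.26 (SE 0.15, n = 2, limma adjusted p = 0.834), with an interval from -0.64 to 0.13, and -0.16 without deficient pool 2. The second Sesn3 probe set stood at 6.73 and 6.26 in deficient pools, against 6.62 and 6.71 in wild type pools, so that only deficient pool 2 lay low (difference -0.17, SE 0.20).

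Cited2 encodes a co-regulator that binds CBP and p300, competes there with HIF-1 alpha, and is needed to keep adult HSC in mice. It had values of 11.28 and 11.67 in deficient pools, against 11.63 and 11.47 in wild type pools. The deficient pools lay on both sides of the wild type pools. The difference was -0.08 (SE 0.19, n = 2, limma adjusted p = 0.962), with an interval from -0.56 to 0.41. Leaving out deficient pool 1 or 2 gave 0.12 or -0.27, leaving out wild type pool 1 or 2 gave 0.00 or -0.15, and median centring gave -0.13. The dimmer Cited2 probe set stood at 6.26 and 6.30 in deficient pools and 5.98 and 5.84 in wild type pools. It kept the groups apart in the other direction (difference 0.37, SE 0.14, limma adjusted p = 0.735), and with the mean of both Cited2 differed by 0.15.

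**Figure D3:**
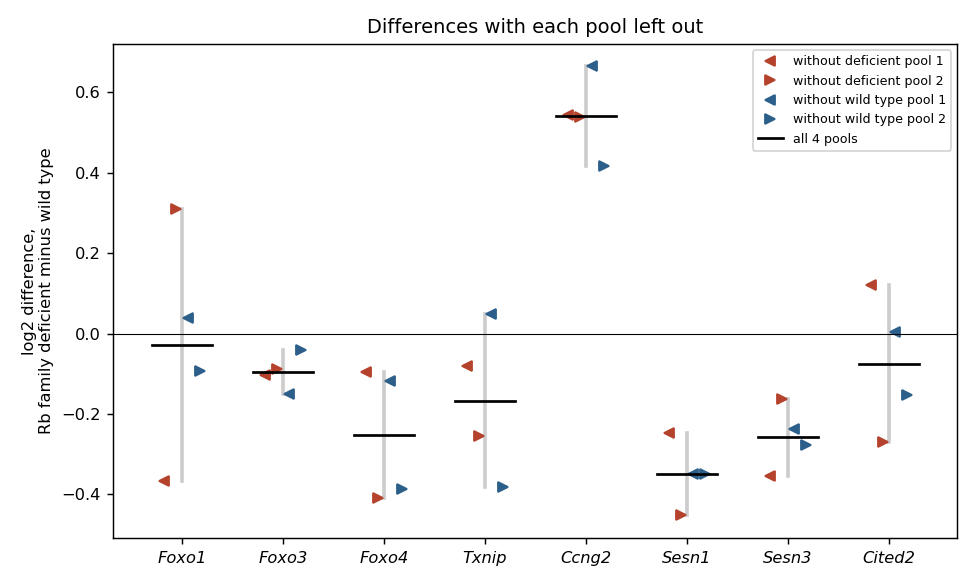
Log2 difference, Rb family deficient minus wild type (y axis), of the 8 genes with all 4 pools (black lines) and with each pool left out (red triangles for the deficient pools, blue for the wild type pools, pointing left for pool 1 and right for pool 2). Foxo1, Txnip and Cited2 cross 0 when a pool is left out, Ccng2 stays above 0, and Foxo3, Foxo4, Sesn1 and Sesn3 stay below.

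Over all 21 probe sets of the 8 genes, 15 were below 0 and 6 above. Pools did not overlap for 6 probe sets that were lower and 2 that were higher in deficient pools, against 15.5% and 20.2% of 45037 probe sets. At an unadjusted p under 0.05 stood 2 higher, of Ccng2 and Cited2, and 1 lower, of Sesn1, against 3.40% and 3.36% of all probe sets, and 0 passed adjusted (0% of all). Probe sets of 1 gene share their target and are not independent. The sign was kept by 11 of the 21 with any 1 pool left out.

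The genes whose profile over the 4 arrays lay nearest to that of Ccng2, each gene centred on its own mean, were Dnah12, a dynein heavy chain gene, Cntn2, a contactin gene, and Cep135, a centriole gene. Their root mean square distances from Ccng2 were 0.03, 0.03 and 0.03 on the log2 scale, over 4 arrays, and their differences of 0.48, 0.54 and 0.55 follow from the choice by likeness. Dnah12 was dim, at 4.59 and 4.62 in deficient pools and 4.26 and 3.99 in wild type pools, below the array medians. Over 4 arrays 59 of the genes not passed over came within 0.1 of the Ccng2 profile. Cep135, for example, stood at 6.14 and 6.07 in deficient pools and 5.65 and 5.46 in wild type pools.

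Relatives of the 8 genes were measured for 9 of 10 listed genes. One was above 0 and 8 below, with a median of -0.13 and 0 past limma's threshold at either the adjusted or the unadjusted p. Ccng1, the close relative of Ccng2 and a p53 target, had values of 11.21 and 10.93 in deficient pools and 11.26 and 11.31 in wild type pools (difference -0.22, SE 0.16). The nearest relative of Ccng2 stood on the other side of 0, although the mean of the Ccng1 probe sets gave 0.00. Sesn2, the stress-induced sestrin, differed by -0.05 (SE 0.17).

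Upstream of FOXO, 24 of 26 listed genes of the PI3K and AKT axis were measured. Above 0 were 12 and below 0 were 12 (median 0.01), with 0 past the adjusted threshold and 2 higher and 0 lower by the unadjusted p under 0.05. These 2 were Sgk1, a kinase related to AKT that also phosphorylates FOXO proteins (1.16, SE 0.17), and Irs1, an adaptor of the insulin receptor, at 5.51 and 5.53 in deficient pools and 4.90 and 5.12 in wild type pools (0.51, SE 0.15). Akt1 differed by -0.35 (SE 0.24), with values of 8.80 and 9.25 in deficient pools inside or below the wild type values of 9.60 and 9.16. Its other probe sets gave 0.06 (SE 0.14), -0.0008 (SE 0.16) and, for the dimmest, -1.17 (SE 0.50). Of 28 measured genes for other regulators of FOXO protein, among them deacetylases, 14-3-3 proteins and ubiquitin ligases, 7 were above 0 and 21 below (median -0.13), with 0 at an adjusted or unadjusted p under 0.05. Sirt1, which deacetylates FOXO proteins, differed by -0.07 (SE 0.14).

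Genes reported elsewhere as FOXO targets did not stand on one side. The lists were not split into targets that FOXO raises and targets it lowers, so the counts give no direction of FOXO activity. Of 13 measured cell cycle targets, 7 were above 0 and 6 below (median 0.01). Of these, 3 on the higher and 2 on the lower side had an unadjusted p under 0.05 and 0 passed adjusted. The cell cycle inhibitors Cdkn1a (1.17, SE 0.25) and Cdkn2d (0.69, SE 0.16) were on the higher side, and cyclin D1 (Ccnd1, -1.70, SE 0.33) and the targeted gene Rbl2 (-0.83, SE 0.19) on the lower. Among the other CDK inhibitors, Cdkn1b had values of 9.36 and 9.86 in deficient pools and 9.80 and 9.25 in wild type pools (0.08, SE 0.27), and Cdkn1c, highly expressed in quiescent HSC of mice, 8.56 and 9.03 in deficient pools and 8.53 and 9.04 in wild type pools (0.01, SE 0.26). For both, the groups overlapped almost fully.

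Of 11 measured targets in oxidative stress defence and repair, 3 were above 0 (median -0.18), with 0 past the adjusted threshold and 1, on the lower side, at an unadjusted p under 0.05. That gene was Txn2, mitochondrial thioredoxin, at 9.39 and 9.42 in deficient pools and 9.87 and 9.73 in wild type pools (-0.40, SE 0.15). Its 2 other probe sets gave -0.32 (SE 0.14) and -0.45 (SE 0.15). The classical FOXO targets Sod2 (-0.18, SE 0.21) and catalase (Cat, -0.16, SE 0.15) had intervals that include 0 in their main probe sets. The second Cat probe set kept the groups apart, at 9.99 and 10.07 in deficient pools and 10.71 and 10.38 in wild type pools (-0.52, SE 0.17). The other Sod2 probe sets gave -0.31 (SE 0.24), -0.15 (SE 0.14) and -0.06 (SE 0.21). Among 15 thioredoxin and HIF partners, 4 were above 0 (median -0.16), and the 2 at an unadjusted p under 0.05, both lower, were Txn2 and the thioredoxin reductase gene Txnrd3. Txnrd3 stood at 8.40 and 8.49 in deficient pools, against 8.78 and 9.33 in wild type pools (-0.61, SE 0.22). Its 2 other probe sets gave -0.62 (SE 0.21) and -0.49 (SE 0.17), so that every probe set of Txn2 and Txnrd3 was below 0. Of the same system, Txn1 was above 0 (0.14, SE 0.19), and Txnrd1 (-0.84, SE 0.45) and Txnrd2 (-0.19, SE 0.23) were below. The other Txnrd1 probe sets stood above 0, at 0.26 (SE 0.19) and 0.07 (SE 0.15).

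Of 16 autophagy and atrophy targets, 5 were above 0 (median -0.14), with 0 past the adjusted threshold and 2, on the lower side, at an unadjusted p under 0.05. Pik3c3, the lipid kinase of autophagosome formation, had values of 7.54 and 7.44 in deficient pools and 8.002 and 7.92 in wild type pools (-0.47, SE 0.15). Ulk2, an autophagy-initiating kinase, had values of 7.91 and 7.9955 in deficient pools and 8.34 and 8.50 in wild type pools (-0.47, SE 0.15). Ulk2 depended on the probe set, with the 3 others at -0.21 (SE 0.21), 0.17 (SE 0.17) and 0.09 (SE 0.15). Of 8 apoptosis targets, 3 were above 0 (median -0.05) and 0 were at an unadjusted p under 0.05. Bcl2l11, which encodes the death inducer BIM, differed by 0.48 (SE 0.19) in its main probe set and by -0.02, -0.26, -0.17 and -0.17 in the 4 others.

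Metabolic and signalling feedback targets stood mostly above 0, 14 of 19 with a median of 0.27. At an unadjusted p under 0.05, 2 were higher and 0 lower, and 0 passed adjusted. Klf2, a quiescence factor of lymphocytes, differed by 1.18 (SE 0.16). Tsc22d3, the glucocorticoid-induced leucine zipper gene, had values of 10.41 and 10.37 in deficient pools and 9.93 and 10.02 in wild type pools (0.41, SE 0.14). The median of this list was 0.08 or 0.45 when wild type pool 1 or 2 was left out and 0.15 when deficient pool 1 was. Several genes are on more than 1 list, and no list was tested as a set.

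**Figure D4:**
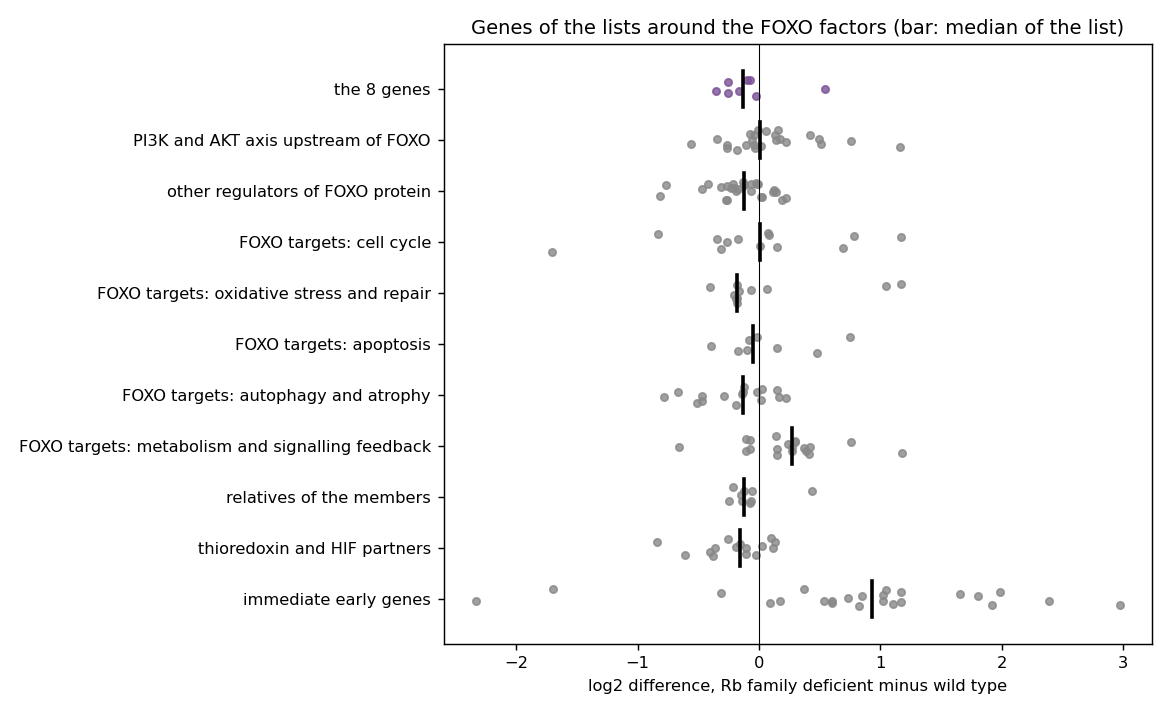
Log2 difference, Rb family deficient minus wild type (x axis), of each measured gene of the lists around the FOXO factors, with immediate early genes for comparison. Points are genes, spread at random along the y axis within a list, bars are list medians, and the 8 genes (purple, top) have a median of -0.13 with Ccng2 alone above 0.

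Other features of the pools also differed between the groups or within them. Of 12 measured of 13 listed stem cell markers, 5 were above 0 and 7 below (median -0.11), and 3 had an unadjusted p under 0.05, all above the array medians in every pool. Mecom stood at 10.90 and 11.13 in deficient pools and 11.80 and 11.62 in wild type pools, and Procr differed by -0.85 (SE 0.17). Ctnnal1 went the other way, at 8.33 and 8.95 in deficient pools and 7.79 and 7.99 in wild type pools. Its difference of 0.75 (SE 0.24) was -0.0118 when probe sets without _s_at or _x_at names came first. The probe set used then was near the bottom of the scale, at 4.20 and 4.15 in deficient pools and 4.25 and 4.13 in wild type pools. Summed linear signals of 12 measured of 14 listed markers of mature neutrophils, cells that the KLS CD48- CD150+ gate is meant to leave out, were 68079 and 43182 in deficient pools, against 20560 and 43457 in wild type pools. Of these 12 markers, 11 were above 0 (median 0.90). Summed signals of 9 markers of granulocyte and monocyte progenitors were 7773 and 20554 in deficient pools, against 4328 and 17221 in wild type pools. Of 19 genes of S, G2 and M phase, 17 were above 0 (median 0.20). Their summed signals were 50522 and 49380 in deficient pools, against 50633 and 37687 in wild type pools, so only wild type pool 2 was low. Immediate early genes, which respond to handling of cells, had 21 of 24 above 0 and 3 below (median 0.93, range -2.33 to 2.98). The 3 below were Myc (-0.31, SE 0.14) and the heat shock genes Hspa1a (-2.33, SE 0.92) and Hspa1b (-1.69, SE 0.64), so the list did not move as 1. RNA quality was read from the Actb and Gapdh controls. For Actb, the 3' probe set exceeded the 5' one by 3.13 and 2.95 in deficient pools and 2.32 and 2.81 in wild type pools. For Gapdh the same gap was 2.79 and 2.50 in deficient pools and 2.40 and 2.58 in wild type pools, so the groups overlapped there. The Y-linked gene Eif2s3y stood at 8.50 and 9.64 in deficient pools, against 9.93 and 10.29 in wild type pools. The part of each in the differences of the 8 genes was not tested.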

How the data were processed

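The data were 4 Affymetrix arrays, 1 per pool of 3 mice, 2 Rb family deficient and 2 wild type, grouped by sample title. The authors deposited 1 log2 value per probe set and array, made with RMA per the submitters' processing notes, which also name limma (versions: not given in the sources used here). Values between 2.65 and 14.9 fit a log2 scale. RMA makes arrays nearly equal in distribution, which hides any shift in total RNA, and compresses differences of dim probe sets. No detection calls were used, and 4 arrays limit the precision.

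Of 45101 probe sets, 64 were array controls, 34945 had 1 gene symbol in the platform annotation of 2016, 932 had several and 9160 had none. Symbols were updated through the Entrez ID with RefSeq genes of GRCm38.p6 (34741 found). Each gene was represented by its probe set with the highest mean, which gave 18193 genes, with no filter on dim ones. Limma 3.58.1 (lmFit, eBayes, no block) in R 4.3.3 was fitted over all genes, with Benjamini-Hochberg adjustment and a threshold of 0.05. Other probe sets come from the same fit over 45037 probe sets. Every SE and 95% interval is limma's. The code was tested on simulated data. Alternatives were median centring, other choices of probe set, a filter at the median signal, an intensity trend, a replicate block and leaving out each pool.

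The 8 genes and all lists were chosen with earlier results of these data known, so no list was tested as a set. Named beyond the 8 genes were up to 4 genes per list with the lowest p among those at an unadjusted p under 0.05, and Cdkn1a, Cdkn1b, Cdkn1c, Sod2, Cat, Bcl2l11, Ccng1, Sesn2, Akt1 and Sirt1. Foxo6, also on the lists, was not used here, nor were protein sequences. Rb1, Eif2s3y and the marker sums were chosen after their values were seen. So were Hspa1a, Hspa1b, Myc, Txn1, Txnrd1, Txnrd2 and the dim metabolic and signalling feedback targets.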

Additional observations from a re-analysis of the deposited data

How the results depend on the processing

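With probe sets lacking _x_at or _s_at names first, Foxo1 differed by 0.17 in place of -0.03 and the stem cell marker Ctnnal1 by -0.0118 in place of 0.75. For Ctnnal1 the probe set used then was dim. Averaging a gene's probe sets, Cited2 differed by 0.15 in place of -0.08, Bcl2l11 by -0.0289, Ccng1 by 0.0015 and Sesn2 by 0.14, and with median centring Cdkn1c by -0.0448. The cause of these turns was not tested beyond the values of the single probe sets. With each pool left out in turn, the differences ran from -0.37 to 0.31 for Foxo1, -0.38 to 0.0477 for Txnip, -0.27 to 0.12 for Cited2, -0.15 to -0.04 for Foxo3, -0.41 to -0.10 for Foxo4, 0.42 to 0.66 for Ccng2, -0.45 to -0.25 for Sesn1 and -0.35 to -0.16 for Sesn3, and the median of the 8 genes from -0.22 to -0.06. They ran from -0.19 to 0.36 for Cdkn1b, -0.25 to 0.27 for Cdkn1c, -0.20 to 0.0933 for Sesn2 and -0.39 to 0.0397 for Sod2. No gene passed limma's adjusted threshold under any alternative, and counts at an unadjusted p under 0.05 were 399 higher and 735 lower. These moved by over 1.5 times to 227 higher among genes with brighter probe sets, to 244 higher and 317 lower without deficient pool 1, and to 689 higher without wild type pool 2. Median centring gave 298 higher and 1009 lower. The titles number the pools of both groups 1 and 2, and the deviations of same-numbered pools correlated at -0.19 across genes, so the numbers were not taken as pairs. With the number as a replicate block, 0 genes passed, Ccng2 differed by 0.54 at a limma adjusted p = 0.962, and 281 genes were higher and 457 lower unadjusted. The crossed pairing, chosen after seeing the data, gave 0 calls, 518 higher and 1151 lower. With 2 pools per group an interval of a gene of this set spans at least 0.72 on the log2 scale, which limits the differences that could be detected.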
